A study of Mus musculus with 12 samples.

Results

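Hba-a1, Hba-a2, Hbb-bs, Hbb-bt and Alas2 are 5 of the 35509 genes in the count table, and they were taken by their symbols across all 12 libraries. The first 4 encode the adult alpha and beta chains of haemoglobin, and Alas2 encodes the erythroid form of the first enzyme of haem synthesis. The libraries come from clones in the distal Fallopian tube of 4-week-old, untreated mice that carry MADM RG;GR alleles on a mixed background, labelled wild type. MADM (mosaic analysis with double markers) colours single cells and their descendants, so that clones can be told apart. Each of 6 mice gave 1 library of large clones and 1 of small clones, with 200 cells pooled per library after laser microdissection. Genotype, age, tissue and treatment are the same in both groups, and clone size is the difference the labels give.

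Haemoglobin is a tetramer of paired alpha and beta chains, each holding a haem group. Red cell precursors make its mRNA in very large amounts. In mammals young circulating red cells (reticulocytes) have no nucleus but still hold globin mRNA. Globin mRNA is for this reason a common marker of blood in tissue RNA. In bulk libraries such as these, fewer cells of a type and less RNA per cell cannot be told apart.

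The paralogs within each chain are almost the same in sequence, which bears on how reads are divided between them. In the GENCODE M21 transcripts, matched by gene identifier, the coding sequences of Hba-a1 and Hba-a2 (429 bases each) differed at 1 base, C381T, with positions counted from 1 at the first base of the start codon. The stretches around it, bases 351 to 411, are shown with that base in capitals.
Hba-a1: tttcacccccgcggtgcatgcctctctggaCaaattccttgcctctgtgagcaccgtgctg
Hba-a2: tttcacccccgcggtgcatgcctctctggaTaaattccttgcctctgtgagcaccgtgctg
The coding sequences of Hbb-bs and Hbb-bt (444 bases each) also differed at 1 base, C417T, here shown in bases 387 to 444.
Hbb-bs: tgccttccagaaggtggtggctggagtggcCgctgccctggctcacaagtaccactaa
Hbb-bt: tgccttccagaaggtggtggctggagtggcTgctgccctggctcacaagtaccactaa
Both differences fall on the third base of a codon, and the translated sequences were identical within each pair. Over the whole protein-coding transcripts, 67.5% of the 50-base windows of Hba-a1 also occurred in Hba-a2, and 57.5% of those of Hbb-bs also occurred in Hbb-bt. No window was shared between Hba-a1 and Hbb-bs. The division of counts within a chain is therefore uncertain, whereas alpha and beta counts are separate measurements.

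The start regions show what the chains share beyond their reading frames. The 100 bases before the RefSeq start of Hba-a2 (GRCm38.p6, plus strand, chr11:32296392-32296491) and of Hbb-bs (minus strand, chr7:103827929-103828028) are given with CCAAT and TATAA in capitals. These, CACCC and GATAAG were searched for on both strands.
Hba-a2: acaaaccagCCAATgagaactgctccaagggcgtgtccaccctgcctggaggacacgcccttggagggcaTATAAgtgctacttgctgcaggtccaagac
Hbb-bs: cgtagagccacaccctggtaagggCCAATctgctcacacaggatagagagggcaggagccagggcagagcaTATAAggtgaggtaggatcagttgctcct
TATAA began 30 bases before the start of Hba-a2 and 29 before that of Hbb-bs, and CCAAT 91 and 76 bases before. The upstream region of Hba-a1 matched that of Hba-a2 at 100 of 100 bases at the best offset, and that of Hbb-bt matched Hbb-bs at 74 of 100. Between the chains, Hba-a1 matched Hbb-bs at only 40 of 100 bases at the best offset. In the last 100 bases, 4 of 5 genes held TATAA and 4 of 5 held CCAAT, against 10.2% and 18.9% of 32851 upstream regions. CACCC, left in lower case above, lay in the last 100 bases of 5 of 5 genes, against 27.2% of regions. It began 63 bases before the start of Hba-a2 and 90 before that of Hbb-bs. The letters GATAAG, which erythroid transcription factors of the GATA family bind, lay 185 bases before the start of Hba-a2 and 209 before that of Hbb-bs. Over 250 upstream bases it occurred at all 4 globin genes, not at Alas2, and in 6.55% of all regions. These matches describe letters only.

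Values are expected counts per gene, and CPM is the count scaled to a common library size after TMM normalisation. Total expected counts ran from 3057979 to 4227129, so a count of 0 allows up to 3 counts, or 0.585 to 1.33 CPM, covering counting error only. Both libraries of mouse 6, the large-clone libraries of mice 1 and 2 and the small-clone library of mouse 3, 5 in all, stood apart with 7.85% to 10.998% of counts on chemoreceptor genes, against 0.840% to 4.14% in the other 7. The globin results are given within both sets below. Of 10 oviduct epithelial markers all 10 were detected, led by Krt18, a simple-epithelium keratin, at a mean of 3018 CPM, and Ovgp1, the oviductal glycoprotein, at 2188 CPM. For a list, detected means a rounded total above 0 over all 12 libraries, which held for 25369 of the 35509 genes.

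Globin transcripts were found in every library, at levels that spread widely. The 4 globin genes together held 0.0034% to 0.395% of the counts of a library, with a median of 0.0716%, a range of 116-fold. Of all 51748 globin counts, 50.2% lay in the large-clone libraries of mice 4 and 6. In large clones the share was 0.0685%, 0.0224%, 0.0300%, 0.395%, 0.0592% and 0.299% for mice 1 to 6. In small clones it was 0.1003%, 0.0216%, 0.0034%, 0.146%, 0.183% and 0.0748%. All 4 libraries of mice 2 and 3 lay at or below 0.0300%, and all 8 libraries of the other mice at or above 0.0592%.

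**Figure D1:**
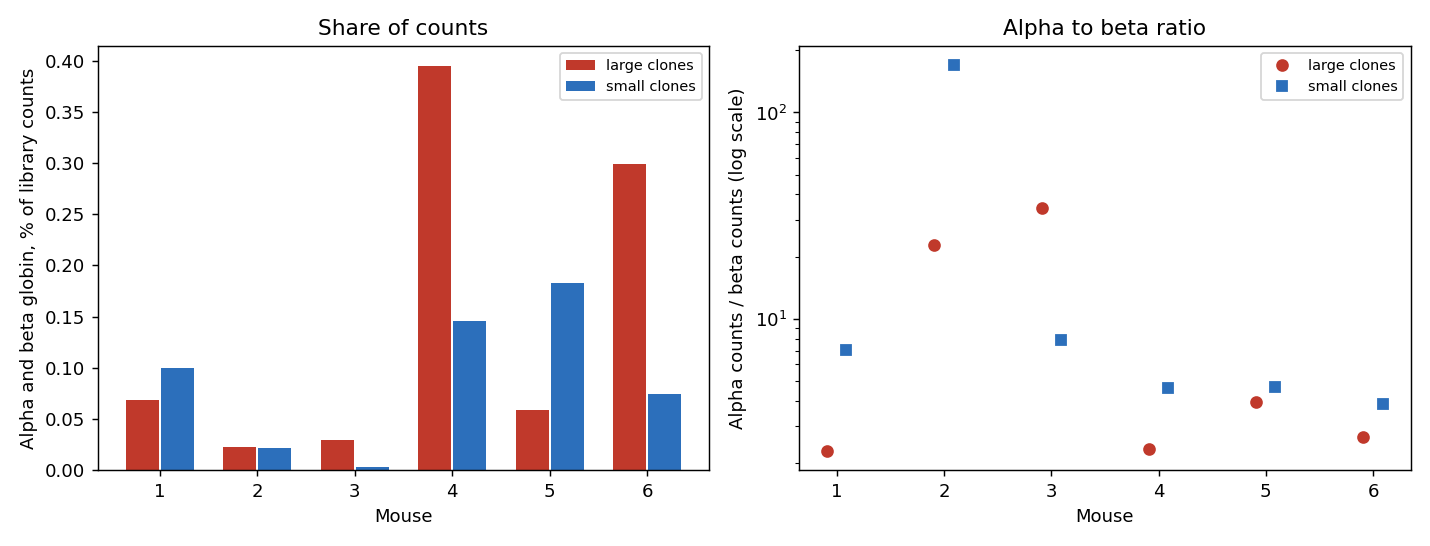
Left, alpha and beta globin counts as a percentage of all counts in each library (bars from 0), by mouse and clone size. Right, the ratio of alpha to beta counts on a log axis. The large clones of mice 4 and 6 hold the highest shares, 0.395% and 0.299%, and the ratio is highest in the small clones of mouse 2, at 169.5.

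Hba-a2, 1 of the 2 adult alpha genes (ENSMUSG00000069917, chromosome 11, 32246489 to 32247298 in the coordinates of the table), was the most abundant member. Its large-clone values ran from 133 CPM (mouse 2) through a median of 288 to 2985 CPM (mouse 4), and its small-clone values from 13.9 CPM (mouse 3) through 356 to 1063 CPM (mouse 5). The groups overlapped over most of their range. In the large clones of mouse 4 it ranked 47 among all genes by CPM, and in the small clones of mouse 3 it ranked 5849. Per kilobase of its longest protein-coding transcript, Hba-a2 averaged 1199 CPM over the 12 libraries, against 497 for Hba-a1 and 460 for Hbb-bs.

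Hba-a1, the other adult alpha gene (ENSMUSG00000069919, chromosome 11, 32233511 to 32234465), had 59.3, 179 and 1157 CPM as lowest, median and highest value in large clones (mouse 2 lowest, mouse 4 highest). In small clones these were 15.4, 310 and 695 CPM, from mouse 3 to mouse 5. The groups again overlapped. The Hba-a1 share of the summed alpha counts was 54.8% (95% exact binomial interval 52.5% to 57.1%) in the large clones of mouse 1 and 56.0% (54.1% to 57.9%) in its small clones. In the small clones of mice 2 and 3 it was 46.4% (42.5% to 50.1%) and 52.8% (43.1% to 61.8%). The other 8 libraries had 27.9% to 39.5%. In 6 of 6 mice the share was lower in large clones, by 1.20 to 22.1 percentage points, and the intervals did not overlap in 5 of them. These intervals cover counting error only, and the division depends on how reads common to both paralogs were assigned.

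**Figure D2:**
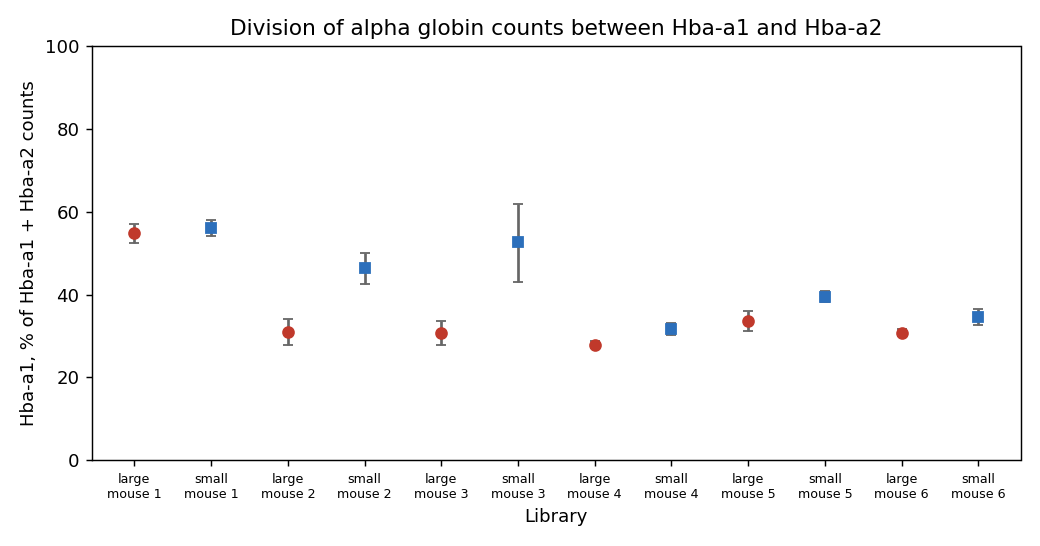
Hba-a1 counts as a percentage of Hba-a1 plus Hba-a2 counts in each library (circles, large clones; squares, small clones), with 95% exact binomial intervals as bars. Both libraries of mouse 1 lie at 54.8% and 56.0%, and the large clones of mouse 4 are lowest, at 27.9%.

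Hbb-bs, an adult beta gene (ENSMUSG00000052305, chromosome 7, 103475741 to 103477303), spread more than the alpha genes. In large clones it had 166, 8.48, 11.1, 1559, 114 and 671 CPM in mice 1 to 6. In small clones it had 118, 1.40, 1.49, 302, 377 and 134 CPM. The 4 lowest libraries were both libraries of mouse 2 and both of mouse 3, and the highest of these was 10.3-fold below the lowest of the other 8. Its standard deviation of log2(CPM + 1) over the 12 libraries was 3.11, above that of 99.4% of 10848 tested genes, whose median was 1.53. Those of Hba-a2 and Hba-a1 were 1.99 and 1.71, at percentiles 75.3 and 60.5.

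Hbb-bt, the second adult beta gene (ENSMUSG00000073940, chromosome 7, 103461731 to 103463203), was confined almost to 1 library. The large clones of mouse 4 held 512 of its counts, 95.5% of the total, and the other 11 libraries together held 24.1. Its CPM was 227 there, and at most 2.23 in any other library, with 0 counts in 5 libraries. Of 3090 genes with a total within 1.5 times that of Hbb-bt, 0.647% had as large a share in 1 library, and the median top share was 33.5%. In the same library Hbb-bs had 3509 counts, so Hbb-bt made up 12.7% (11.7% to 13.8%) of beta counts. In the small clones of mouse 4, with 887 counts of Hbb-bs, Hbb-bt had none (upper bound 0.415%). It also had none in the large clones of mouse 6, with 3441 counts of Hbb-bs (upper bound 0.107%). In the small clones of mouse 3 it made up 57.2% (32.3% to 83.7%), but of only 15 beta counts.

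Alas2 (ENSMUSG00000025270, chromosome X, 149330371 to 149353634) was at or near 0 throughout. It had 6 counts in large clones of mouse 5, 3 in those of mouse 6, 2 each in the small clones of mice 4 and 5, and 0 in the other 8 libraries, 13 in all. The large clones of mouse 4, with 13346 globin counts, had 0 counts of Alas2, which allows up to 1.33 CPM. Its highest level, 1.69 CPM, was in a library with 567 CPM of globin. Per kilobase it averaged 0.144 CPM, against 460 for Hbb-bs.

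**Figure D3:**
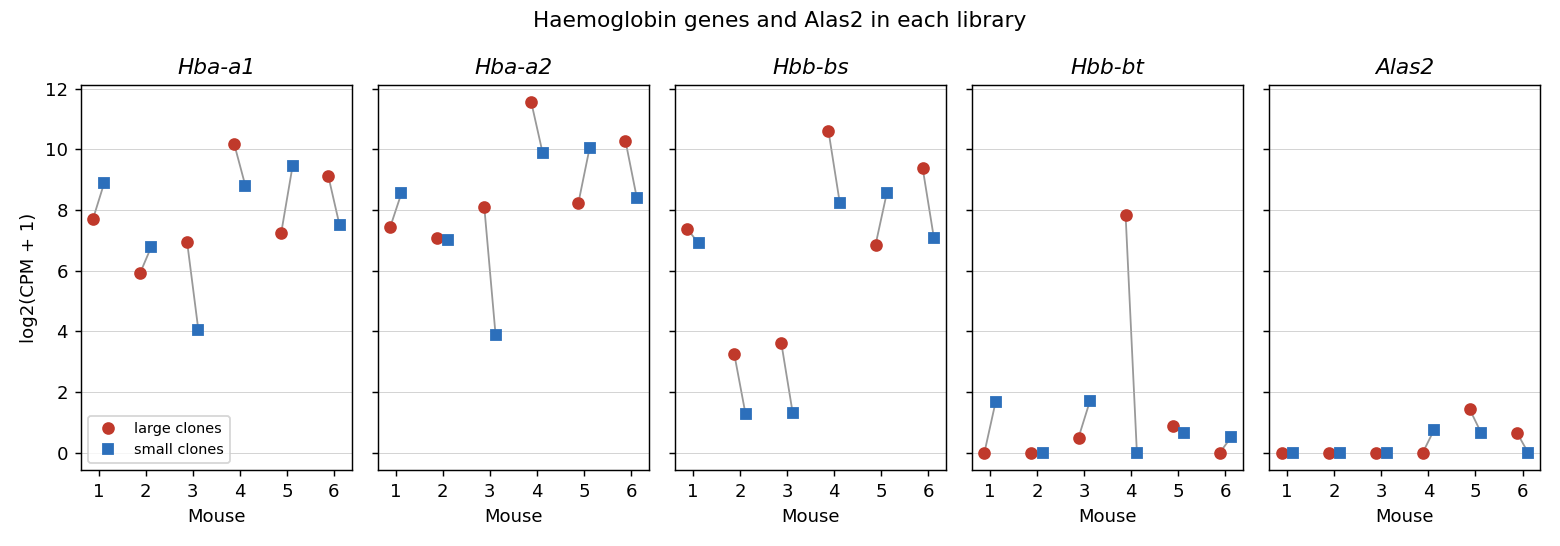
Level of each gene as log2(CPM + 1) in the large-clone (circle) and small-clone (square) library of each mouse, with a line joining the libraries of a mouse. Hbb-bs lies at 3.60 or lower in all libraries of mice 2 and 3 and at 6.85 or higher elsewhere, and Hbb-bt exceeds 1.69 only in the large clones of mouse 4.

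The alpha and beta genes varied together in rank, but not in fixed proportion. Over the 12 libraries, Hba-a1 and Hba-a2 were the 2 genes most like Hbb-bs among all tested, with Spearman correlations of 0.93 and 0.92. The points share libraries, mice and the same count table, so this is a description. The next 5 were Khdrbs1, an RNA-binding protein (0.90), Ankrd13c (0.87), Fam122a (0.84), Larp1, which binds mRNA (0.84), and Ywhaq, a 14-3-3 protein (0.83). Khdrbs1 ran only from 21.3 to 58.9 CPM, so likeness in rank did not mean likeness in range.

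The ratio of alpha to beta counts was 2.28, 22.6, 34.5, 2.32, 3.92 and 2.68 in large clones of mice 1 to 6. In small clones it was 7.05, 169.5, 7.87, 4.59, 4.65 and 3.85. All 4 libraries of mice 2 and 3 (7.87 or more) lay above the other 8 (2.28 to 7.05), though the small clones of mouse 3 and of mouse 1 nearly met. These 4 libraries also had the lowest Hbb-bs, and Hbb-bs counts enter the ratio, so this is not a separate observation. In the small clones of mouse 2 only 4 of 682 globin counts were beta, 0.587% (exact interval 0.160% to 1.49%), against 30.1% (29.4% to 30.9%) in the large clones of mouse 4. The ratio was lower in large clones in 5 of 6 mice. No test was made of these ratios. The table has no row for Hbb-b1 or Hbb-b2, the beta genes of another mouse Hbb haplotype, and its Hbb-bs row carries the Entrez identifiers of both Hbb-b1 and Hbb-bs.

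Whether both libraries of a mouse resembled each other was asked gene by gene. The mean absolute difference of log2(CPM + 1) between them, after centring each clone size, was set against all 720 assignments of large-clone libraries to mice (one-sided exact permutation test). For Hbb-bs it was 1.27, with an exact p of 0.0278, or 0.621 after adjustment over the 10848 genes tested. For Hba-a2 and Hba-a1 it was 1.77 and 1.70, with exact p of 0.222 and 0.328 and adjusted p of 0.629 and 0.666. Of the 3 tested members 1 had an unadjusted p under 0.05, against 7.22% of all genes, and 0 passed the adjusted threshold, as for all genes (0%). The lowest p that 720 assignments allow in this exact test is 0.00139. A gene could therefore not pass adjustment over 10848 genes by itself, however closely its libraries agreed. The adjusted p cannot decide whether a single gene agreed within mice. The exact p of Hbb-bs ranged from 0.0167 to 0.117 over the alternatives, and was above 0.05 without mouse 1, 2, 3, 4 or 6 (0.0667 to 0.117), without centring (0.0556) and by Spearman correlation over the mice (0.0875).

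Within single mice the alpha genes could differ widely. In mouse 3, Hba-a2 was 19.9-fold and Hba-a1 7.94-fold higher in the large-clone library. In mouse 5 the large-clone library was the lower one for all 3 abundant genes, at ratios of 0.218 (Hba-a1), 0.282 (Hba-a2) and 0.303 (Hbb-bs). In mouse 2, Hba-a2 was nearly equal, at 133 and 127 CPM, while Hbb-bs was 8.48 and 1.40 CPM.

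Between clone sizes, no member passed the threshold. Hbb-bt and Alas2 had too few counts for the edgeR filter, which left 3 of the 5 members. The mean of Hbb-bs was 422 ± 609 CPM for large clones and 156 ± 155 CPM for small ones (SD over 6 mice). On the log2 scale large exceeded small by 1.44 (SE 1.30, adjusted p of 0.9998 in edgeR). The large-clone library was the higher one in 5 of 6 mice, and 12.2% of all tested genes had at least 5 such mice. For Hba-a2 the means were 851 ± 1124 and 477 ± 431 CPM and the log2 difference was 0.84 (SE 0.94), with the large-clone library higher in 4 of 6 mice, while 34.1% of genes had at least 4 such mice. For Hba-a1 the means were 375 ± 421 and 319 ± 259 CPM and the log2 difference was 0.23 (SE 0.84), with 3 of 6 mice higher. Both had an adjusted p of 0.9998 in edgeR as well.

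The median of the 3 log2 fold changes was 0.84, against 0.06 over all 10848 tested genes. Without the filter, Hbb-bt had a log2 fold change of 5.17 (SE 1.96) in edgeR, with an unadjusted p of 0.0155 and an adjusted p of 0.419. Its mean levels without mouse 4 were 0.251 CPM for large and 1.09 CPM for small clones, so that the order turned. Alas2 had a log2 fold change of 0.87 (SE 1.53) in that edgeR fit, with an unadjusted p of 0.577 and an adjusted p of 0.903. Of the 25369 genes fitted there, 2880 (11.4%) had an unadjusted p under 0.05 and 0 (0%) an adjusted one. After the filter, all genes together gave 0 calls (0%) at an adjusted p under 0.05 and 275 (2.54%) at an unadjusted p under 0.05 in edgeR, and none of the 3 members left was among either. DESeq2 called 5 genes (0.0461%) and had 535 (4.93%) at an unadjusted p under 0.05, and no member was among them. With mouse as a block the unadjusted p of Hbb-bs was 0.0529 in edgeR (log2 fold change 1.58, SE 0.72, adjusted p of 1), where 202 genes (1.86%) were under 0.05 and 0 (0%) passed adjustment, and 0.0218 in DESeq2 (adjusted p of 0.358). That DESeq2 fit called 42 genes (0.387%) at an adjusted p under 0.05 and 1134 (10.5%) at an unadjusted one.

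The direction for Hba-a1 depended on which mice were included. Without mouse 4 the log2 fold change was 0.61 for Hbb-bs, 0.13 for Hba-a2 and -0.45 for Hba-a1, and without mouse 5 these were 2.09, 1.39 and 0.76. Without mouse 6 Hba-a1 was at -0.09 and Hba-a2 at 0.56, and without mouse 1 Hba-a1 was at 0.43. Within the 7 libraries of lower chemoreceptor content, the log2 fold changes of Hbb-bs, Hba-a2 and Hba-a1 were 1.47, 0.90 and 0.09. In the other 5 they were 2.09, 1.59 and 1.51. The lowest adjusted p of a member in edgeR over both sets was 0.959. Globin shares overlapped between the sets, with medians of 0.1003% and 0.0685%.

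Lists of other haem and red cell genes gave no call between clone sizes. Genes named below beyond the 4 most abundant of a list were chosen after their values were seen. Of 10 other globin genes in the table, the embryonic genes Hba-x and Hbb-y, with Hbb-bh0 and Hbb-bh2, were at 0 in every library, and Hbb-bh1 had 2 counts. The theta genes Hbq1a and Hbq1b had 25.1 and 7.93 counts, all in the small clones of mouse 3. Only Cygb (cytoglobin, made in many non-erythroid cells, a mean of 244 CPM) and Mb (myoglobin, 18.5 CPM) were tested, and neither passed. Cygb was also highest in the large clones of mouse 4, at 688 CPM.

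All 12 genes of the haem synthesis list were detected and 8 were tested, 3 with a positive and 5 with a negative log2 fold change, and 0 passed. Alad, Fech and Urod, enzymes after the first step, averaged 429, 167 and 109 CPM, and the summed list ran from 445 to 1965 CPM. These enzymes act in all cells that make haem. Alas1, the non-erythroid form of the first enzyme, had 129 counts against the 13 of Alas2.

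The membrane and regulator lists were led by genes that many tissues express. Of 17 red cell membrane genes, 16 were detected and 8 tested, with 4 log2 fold changes of each sign and 0 calls. Tmod1, a cap of actin filaments (245 CPM), Cd24a, a surface glycoprotein also of epithelia (171 CPM), Dmtn (96.8 CPM) and Epb41 (24.3 CPM) led it. Rhag, an erythroid Rh-family protein, had 187 counts and Epb42, a red cell membrane protein, had 188, and both were detected in all 12 libraries. Ermap, an erythroid membrane protein, had 720 counts, 444 of them in the small clones of mouse 3, where globin was lowest. Slc4a1, the band 3 anion exchanger, had 7 counts, 5 of them in the large clones of mouse 5.

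Of 20 erythroid regulators and cytosolic genes, 19 were in the table, 17 were detected and 6 tested, 3 of each sign, with 0 calls. Prdx2, a peroxiredoxin (336 CPM), Bnip3l, a mitophagy receptor (87.3 CPM), Blvrb, a biliverdin reductase (32.8 CPM) and Cat, catalase (10.04 CPM) led it. Epor, the erythropoietin receptor, and Car1 were at 0 everywhere. Gata1 had 31 counts over 8 libraries and Klf1 had 120, of which 109 lay in the large clones of mouse 3, where globin was at 0.0300% of counts. Ahsp had no row in the table.

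Markers of other cells that microdissection could bring along were present in part, and 0 passed the test in any of these lists. Several had few counts, such as the platelet genes Gp9 (2 counts) and Gp1ba (12) and the leukocyte genes Nkg7 (1) and S100a9 (2). The summed platelet list ran from 18.2 to 943 CPM across large clones, and from 2.73 to 1116 CPM across small ones, led by Gp1bb (337 CPM), Itga2b (51.2 CPM), Itgb3 and Pf4, with Ppbp at 0 in all libraries. Among large clones it was lowest in mouse 4, where globin was highest, but among small clones it was lowest in mouse 3 and highest in mouse 5, as globin was. Of its 8 genes 3 were tested, all with a negative log2 fold change (median -0.80). The leukocyte list ran from 0.444 to 270 CPM across large clones, and from 21.6 to 137 CPM across small ones, led by Cd3e, Ptprc, C1qb and Csf1r, with S100a8 at 0 in all libraries. Its lowest value was again in the large clones of mouse 4.

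The endothelial list, led by Vwf (89.8 CPM), Pecam1 (78.2 CPM), Egfl7 and Flt1, ran from 171 to 508 CPM across large clones, and from 111 to 309 CPM across small ones. All 10 of its genes were detected, though Cdh5 had 14 counts in 3 libraries and Tek 58 in 2. Tests were made of 7 genes, and 0 passed. Of these 6 had a positive log2 fold change and 1 a negative one (median 0.68, beside 0.84 for the 3 globin genes). The large clones of mice 4 and 6, with the most globin, also had the 2 highest endothelial sums, 434 and 508 CPM. The stromal list ran from 22.8 to 550 CPM across large clones, and from 50.9 to 278 CPM across small ones, led by Dcn, Col1a2, Col3a1 and Des. Its highest value was in the large clones of mouse 4, which also held 511 of 860 counts of Kdr, an endothelial receptor, and 631 of 985 counts of Dcn, a matrix proteoglycan. These were the 2 genes of all the lists with an unadjusted p under 0.05 in edgeR after the filter, at 0.0492 and 0.0488 (adjusted p of 0.9998 for both). That library had the fewest detected genes, 12090. The part of these cells and of library quality in the globin counts was not tested.

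**Figure D4:**
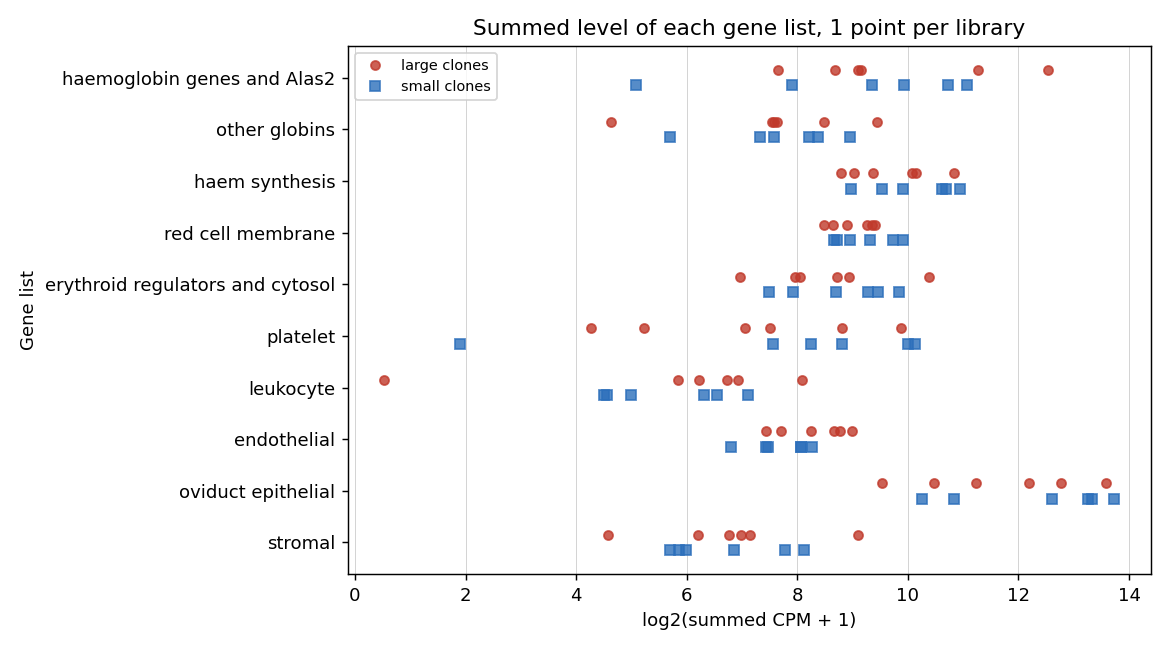
Summed CPM of each gene list on a log2(x + 1) axis, 1 point per library (circles, large clones; squares, small clones). Haemoglobin genes and Alas2 span from 33.0 to 5928 CPM, and large and small clones overlap in every list.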

How the data were processed

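Microdissected cells were digested with proteinase K, their poly(A) RNA was amplified, and Nextera XT was used for the 12 libraries, per the labels' protocols. A single table of expected counts, with genes as rows, was deposited, and 22.7% of its entries were not whole. Its column names refer to isoform results, and how isoforms became genes is not given in the sources used here. RSEM, Bowtie2 and GRCm38 are named in the submitters' processing notes, without versions. The gene starts in the table differ from RefSeq GRCm38.p6 for all 5 members, so gene coordinates are given as deposited, with an unnamed build. RSEM divides reads that fit several transcripts in proportion to estimated abundance. The row without a symbol (0.133% of counts) was kept under its identifier.

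Rounded counts entered edgeR 4.0.16 for its quasi-likelihood test (R 4.3.3, TMM, filterByExpr, no block, Benjamini-Hochberg at 0.05 over 10848 genes). The SE is the fold change divided by the root of the F statistic. CPM used TMM-scaled sizes. DESeq2 1.42.0 and limma 3.58.1 were alternatives. Exact tests used scipy 1.17.1, and figures matplotlib 3.10.9. Each clone size has 1 library per mouse. The p-values of fits without a block measure the spread between libraries of a clone size and leave out the pairing by mouse. Fits with mouse as a block use that pairing.

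Both libraries of a number come from 1 mouse, per the labels. The correlation of their deviations from group means was -0.02, -0.01, -0.38, 0.28, 0.52 and 0.64 for mice 1 to 6. Promoter sequences are from RefSeq (5 of 5 members matched), transcripts from GENCODE M21. Members and lists were chosen with earlier results of these data known. By rule the text names the members, up to 4 genes per list by mean CPM, and the 5 genes most like Hbb-bs in rank. Further genes of the lists were named after their values were seen. Some genes of the lists are not reported here by name. In simulated data for this comparison, on 10848 genes, the calls by edgeR were 1 of 45 at a 4-fold change, 2 of 46 at 8-fold, and 14 of 43 at 16-fold.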

Additional observations from a re-analysis of the deposited data

Results flagged for a closer look

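In 18 groups of 6 libraries, 6 held a library that stood apart. Its gap to its nearest neighbour was larger, as a part of the range, than Dixon's 95% limit for 6 values. Chance flags about 1 in 20 groups only where the values are normally distributed. Several measures here are strongly skewed, such as the ratio of alpha to beta counts. The 6 of 18 groups therefore cannot be set against that rate. The groups share counts, so these cases are not independent. Hbb-bt had 227.4 CPM in the large clones of mouse 4, against 0.843 CPM in the next large-clone library, and Hbb-bt made up 12.7% of beta counts there, against 4.25% in the next large-clone library. In the small clones of mouse 3 it made up 57.2% of 15 beta counts, against 1.94% in the next small-clone library. Alas2 had 1.69 CPM (6 counts) in the large clones of mouse 5, against 0.585 CPM in the next large-clone library. The ratio of alpha to beta counts was 169.5 in the small clones of mouse 2, against 7.87 in the next small-clone library. The Hba-a1 share of alpha counts was 54.8% in the large clones of mouse 1, against 33.6% in the next large-clone library, while the small clones of mouse 1 had 56.0%.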

How the results depend on the processing

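Of 75 alternative values for clone size, 69 kept their direction and their side of the threshold. The count of genes at an adjusted p under 0.05 was 5 in DESeq2 and 42 in DESeq2 with the replicate block, and 0 in the other alternatives. The log2 fold change of Hba-a1 was -0.48 in limma with quality weights and ran from -0.45 (without mouse 4) to 0.76 when 1 mouse was left out, with -0.09 without mouse 6. That of Hba-a2 was -0.0058 in limma with quality weights. The cause was not tested. Hbb-bs was higher in large clones in all 18 alternatives that tested it, from 0.61 to 2.09, and had too few counts for a minimum of 10 in every library. With the replicate block in edgeR the log2 fold changes were 1.58 (Hbb-bs), 0.75 (Hba-a2) and 0.27 (Hba-a1), and the block changed no call of a member.

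For the agreement within mice, 43 of 44 alternative values kept their direction. That of Hba-a1 turned without mouse 4, with an exact p of 0.517 over 120 assignments, where the exact p of Hba-a1 without 1 mouse ran from 0.217 to 0.517. All 80 alternative mean levels moved by less than 1 SD. Leaving out 1 mouse cannot move the mean of a clone size that far, so this limit could not fail for those values. The mean of Hbb-bt in large clones, 38.1 CPM, was 0.251 CPM without mouse 4. The mean of Alas2 in large clones, 0.378 CPM, was 0.117 CPM without mouse 5. Without mouse 4, large clones averaged 219 CPM of Hba-a1, 424 CPM of Hba-a2 and 194 CPM of Hbb-bs. Alas2 had 13 counts in all, and how large a difference between groups could be found at that depth was not tested.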
